A study of Mus musculus with 12 samples.

Results

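The 8 genes described here, Esrrb, Tbx3, Tfcp2l1, Nanog, Prdm14, Klf2, Klf5 and Zfp42, encode transcription factors of the naive pluripotent state, and were taken as a fixed list of symbols out of 21755 protein-coding genes, those that GENCODE M21 places on an autosome or on chromosome X. All 8 had enough reads to be measured in every library, as did 20950 protein-coding transcription start sites (TSSs) in all. The measurement was Okazaki fragment sequencing (OK-seq) in mouse embryonic stem cells, done to ask how loss of KMT2C and KMT2D activity acts on replication origins before and after exit from the naive state. Naive ESCs were kept with LIF and 2i, and epiblast-like cells (EpiLCs), a model of the formative state, were made from them by withdrawal of both. No expression, chromatin or replication timing data were used, so that none of the values below is a transcript level.

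In each state 3 genotypes were compared. The control was a KMT2C KO line with a conditional allele of KMT2D and a tamoxifen-inducible Cre, so that KMT2C was absent from the control too. The KMT2C/D dKO cells were the same line after 4-hydroxytamoxifen had removed KMT2D. The KMT2C/D dCD cells carry catalytically dead enzyme and come from a different ESC line (R1, of 129 background, male), whereas the control line is of mixed C57BL/6 and 129 background, so that the enzyme and the line cannot be told apart where dCD is set against control. Each of the 6 libraries is the sum of 2 biological replicates, and each genotype is 1 line.

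OK-seq reads carry the direction of replication forks, since Okazaki fragments are made only on the lagging strand. The percentage of Crick reads, C/(W+C), is the share of forks that move from left to right in the genome. Where forks start, Crick reads are few on the left and many on the right. Strand bias was computed from 50 kb windows as the Crick percentage on the right of a TSS less the one on its left, in percentage points, and it has the same sign for genes of either strand. A positive strand bias marks a net start of forks around the TSS and a negative one a net meeting of forks.

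The 8 genes mark the naive state, and most of their products help to hold ESCs in it. In textbook accounts LIF acts through STAT3 to raise Tfcp2l1, the GSK3 inhibitor of 2i lifts TCF7L1 repression from Esrrb, and the network of Esrrb, Tfcp2l1, Tbx3, Nanog and the Krüppel-like factors Klf2 and Klf5 keeps itself active. Prdm14 holds down FGF signalling and the de novo DNA methyltransferases, and Zfp42, also called Rex1, is the common reporter of the naive state. The genes are switched down as cells pass to the formative state. KMT2C and KMT2D, also called MLL3 and MLL4, place H3K4me1 at enhancers.

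Depth was 3655095 to 4409068 reads in the naive and 11407678 to 13601460 reads in the EpiLC libraries. A 50 kb side of a member's TSS held 66 to 166 reads in the naive and 133 to 413 in the EpiLC libraries. Since the replicates are summed, there is no replicate error and no p-value. Intervals are 95% counting intervals, which compare these libraries and not the conditions, and a value is called when its interval lies wholly on one side of 0. The members' counts are set beside the share of all 20950 TSSs called by the same rule.

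Esrrb has 2 annotated starts that behaved differently, and Tfcp2l1 and Zfp42 gave the EpiLC minus naive differences furthest below 0, so the promoters of these 3 genes are shown. Of the 8 genes, 5 matched 7 promoters in the RefSeq table (build GRCm38.p6, the same coordinates as mm10), each running from 250 bases before to 50 bases after a start, and CpG dinucleotides are in capitals. Tbx3, Prdm14 and Klf5 are named only. The first Esrrb start is at chr12:86360867-86361166 on the plus strand, the second at chr12:86421394-86421693, also plus, Tfcp2l1 at chr1:118627695-118627994, plus, and Zfp42 at chr8:43306960-43307259, minus.
Esrrb, first start: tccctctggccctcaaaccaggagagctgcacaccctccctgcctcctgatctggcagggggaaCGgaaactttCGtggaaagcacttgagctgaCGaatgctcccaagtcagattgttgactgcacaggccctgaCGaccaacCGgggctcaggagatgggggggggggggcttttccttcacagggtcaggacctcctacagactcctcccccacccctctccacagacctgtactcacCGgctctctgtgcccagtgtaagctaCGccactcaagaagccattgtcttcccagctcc
Esrrb, second start: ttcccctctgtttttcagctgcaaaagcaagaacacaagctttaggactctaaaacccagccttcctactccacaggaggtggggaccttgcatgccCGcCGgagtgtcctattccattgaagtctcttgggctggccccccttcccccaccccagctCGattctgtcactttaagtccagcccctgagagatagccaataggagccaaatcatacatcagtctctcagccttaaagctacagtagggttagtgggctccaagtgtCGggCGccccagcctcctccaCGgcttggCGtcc
Tfcp2l1: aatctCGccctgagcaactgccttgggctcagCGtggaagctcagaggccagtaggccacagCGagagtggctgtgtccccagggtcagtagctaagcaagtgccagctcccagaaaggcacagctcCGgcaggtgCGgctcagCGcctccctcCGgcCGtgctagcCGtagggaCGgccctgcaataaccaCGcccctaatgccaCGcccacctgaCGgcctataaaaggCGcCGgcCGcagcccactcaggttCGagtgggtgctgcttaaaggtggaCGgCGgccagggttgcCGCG
Zfp42: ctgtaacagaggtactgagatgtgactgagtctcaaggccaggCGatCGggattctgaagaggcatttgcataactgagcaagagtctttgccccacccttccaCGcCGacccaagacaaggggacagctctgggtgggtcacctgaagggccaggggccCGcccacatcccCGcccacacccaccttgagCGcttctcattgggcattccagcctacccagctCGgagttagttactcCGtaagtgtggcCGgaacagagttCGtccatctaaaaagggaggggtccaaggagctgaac
Both Esrrb promoters held 7 CpG, Zfp42 11 and Tfcp2l1 21, against a median of 7 over 32817 promoters. The Klf2 promoter, not printed, held 32. The letters GGGTGTG, a core of Krüppel-like factor sites, were searched on both strands and occurred once in the first Esrrb promoter and once in that of Zfp42, and 7.95% of all promoters hold them. AAGGTCA, the core bound by ESRRB, was in none of the 7 promoters and in 4.72% of all.

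Within 500 bases of the GENCODE TSS the number of CpG ran from 18 at Nanog, 23 at Esrrb, 28 at Zfp42 and 34 at Prdm14 to 52 at Tfcp2l1, 75 at Klf2, 82 at Tbx3 and 102 at Klf5, with a median of 43 over all TSSs measured. The members were isolated genes. Klf2 alone had another protein-coding TSS within 50 kb, that of Gm10282 on the opposite strand at 13.8 kb, so the windows of the other 7 hold no other such start.

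Summed over the 8 TSSs, Crick reads were the minority on the left and the majority on the right in all 6 libraries, and the summed strand bias was above 0 in each. In the naive libraries it was 16.8 points in control (12.4 to 21.1), 13.9 in dKO (9.29 to 18.5) and 22.6 in dCD (17.9 to 27.2). In the EpiLC libraries it was 13.0 points in control (9.97 to 15.9), 15.4 in dKO (12.6 to 18.1) and 14.8 in dCD (12.1 to 17.6). These sums lay above those over all TSSs, which ran from 6.76 to 7.66 points in the naive and from 4.82 to 5.79 in the EpiLC libraries. The same held for the gene lists compared at the end of these Results. In naive control their sums were 13.5 points for formative, 19.9 for other naive-state and 19.1 for core and LIF signalling genes. In EpiLC control they were 14.2, 11.5 and 13.5. Taken singly, 5 of the 8 TSSs were called above 0 in naive control, beside 29.9% of all TSSs. The count was 3 in naive dKO (28.2% of all) and 6 in naive dCD (30.8%). It was 6 in each EpiLC library, beside 33.2% in control, 37.7% in dKO and 39.7% in dCD. With 25 kb windows the calls of Klf5 (1.51 to 4.64 points) and Zfp42 (2.58 to 5.07) were lost in all EpiLC libraries. Those of Prdm14 were lost in EpiLC control and dCD, while Klf2 became called in EpiLC dKO and dCD and Esrrb in EpiLC dKO.

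**Figure D1:**
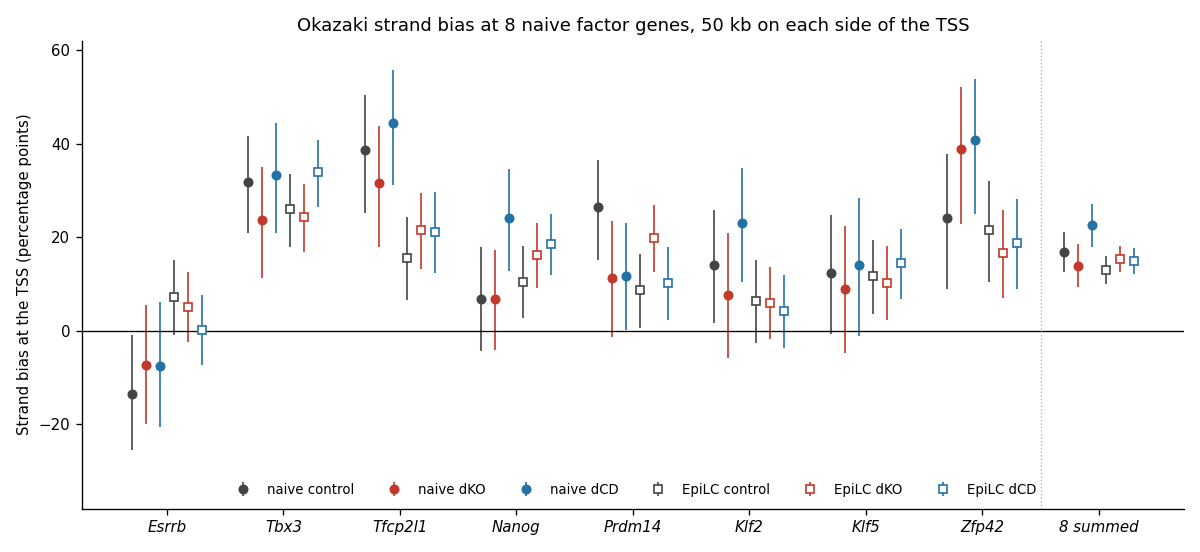
Strand bias at the TSS of each gene and summed over the 8 (vertical axis, percentage points) in 6 libraries, with 95% counting intervals as bars. Filled circles are naive and open squares EpiLC libraries. Esrrb lies below 0 in all 3 naive libraries, Tbx3 between 23.6 and 33.9 points in all 6, and Tfcp2l1 between 31.6 and 44.4 in naive and between 15.6 and 21.6 in EpiLC libraries.

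The profile of the 8 genes, read in the direction of transcription, showed a step at the TSS in both states. In naive control, 46.3% of forks moved with transcription in the last 10 kb before the TSS (39.1 to 53.7) and 59.8% in the first 10 kb after it (53.3 to 66.0). In EpiLC control the same steps held 43.0% (38.0 to 48.1) and 50.4% (46.0 to 54.9). The share stayed above 50% in most steps out to 100 kb downstream and below 50% in most steps upstream. Of the naive libraries, dCD reached the highest share of any step, 67.7% between 20 and 30 kb downstream (60.7 to 74.0).

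**Figure D2:**
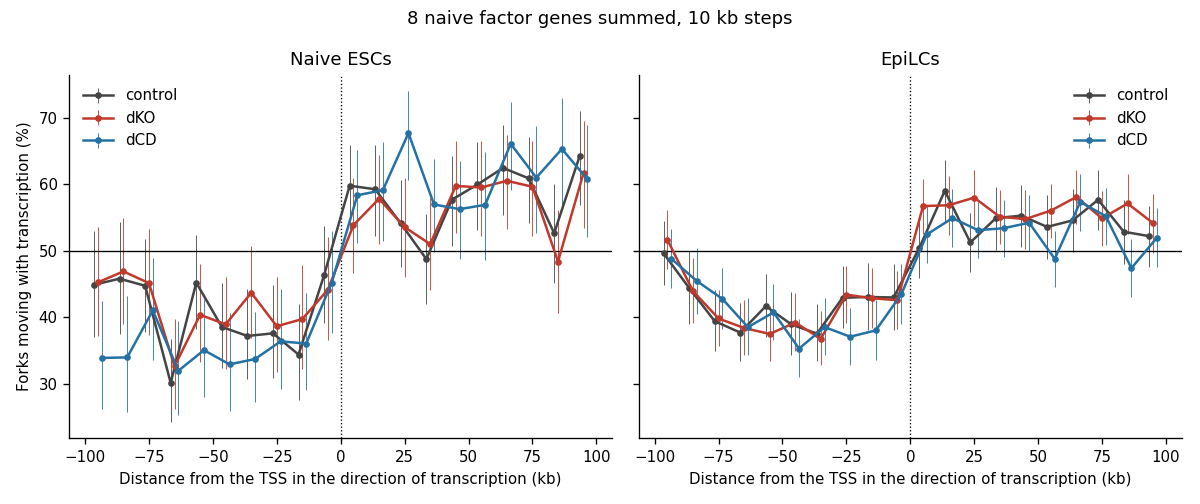
Share of forks moving with transcription (vertical axis, percent) in 10 kb steps from the TSS (horizontal axis, kb), summed over the 8 genes, in naive ESCs on the left and EpiLCs on the right. Lines are genotypes and bars 95% counting intervals. The lines pass from below to above 50% at the TSS in both states, and naive dCD reaches 67.7% at 20 to 30 kb.

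Between states, the summed strand bias with 50 kb windows was lower in EpiLCs by a called amount in dCD, a call that did not hold at every window or scale. The EpiLC minus naive difference was -3.88 points in control (-9.12 to 1.42), 1.45 in dKO (-3.86 to 6.81) and -7.77 in dCD (-13.1 to -2.34). The median over all TSSs was -1.74, -1.42 and -1.69 points. The differences of the mutants' changes from that of control were not called, at 5.33 points for dKO (-2.17 to 12.8) and -3.89 for dCD (-11.4 to 3.66). The amplitude of fork direction, which is how far the Crick percentage of 50 kb bins spreads over the genome (SD), was also highest in naive dCD (16.5 points against 12.6 in naive control and 12.3 in EpiLC dCD). Divided by amplitude and rescaled to that of naive dCD, the dCD difference was -2.64 points (-8.53 to 3.33). Without Tfcp2l1 the dCD difference was -5.50 (-11.2 to 0.307). With 25 kb windows it was -5.27 (-12.8 to 2.48). The control difference became called with 25 kb windows, at -7.99 points (-15.4 to -0.406), with 100 kb windows, at -5.25 (-9.01 to -1.45), and without Esrrb, at -7.30 (-12.8 to -1.67). Divided by amplitude and rescaled to that of naive control, the control difference was -0.053 points (-5.84 to 5.78).

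One TSS at a time, 3 of 8 were called in control (1 above and 2 below 0), beside 12.4% of all TSSs. In dKO 1 of 8 was called, below 0, beside 10.1%, and in dCD 3 of 8, all below 0, beside 12.2%. The 3 EpiLC libraries all lay below the 3 naive libraries at 3 of the 8 genes, Tfcp2l1, Klf2 and Zfp42, as did 14% of all TSSs. They all lay above them at Esrrb alone of the 8, as did 6.48% of all TSSs. The 3 genotypes are no replicates of a state. Klf5 and Tbx3 had differences near 0 in most genotypes, with intervals that reach at least 14.8 points on one side in each. With 25 kb windows 6 of the 7 differences called with 50 kb were no longer called, all but that of Prdm14 in control. Among these 6 the Zfp42 values were larger than with 50 kb (-26.2 points in dKO and -26.0 in dCD). The others were smaller, at -12.8 for Tfcp2l1 in control, -19.4 for Tfcp2l1 in dCD, -5.70 for Klf2 in dCD and 15.4 for Esrrb in control.

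**Figure D3:**
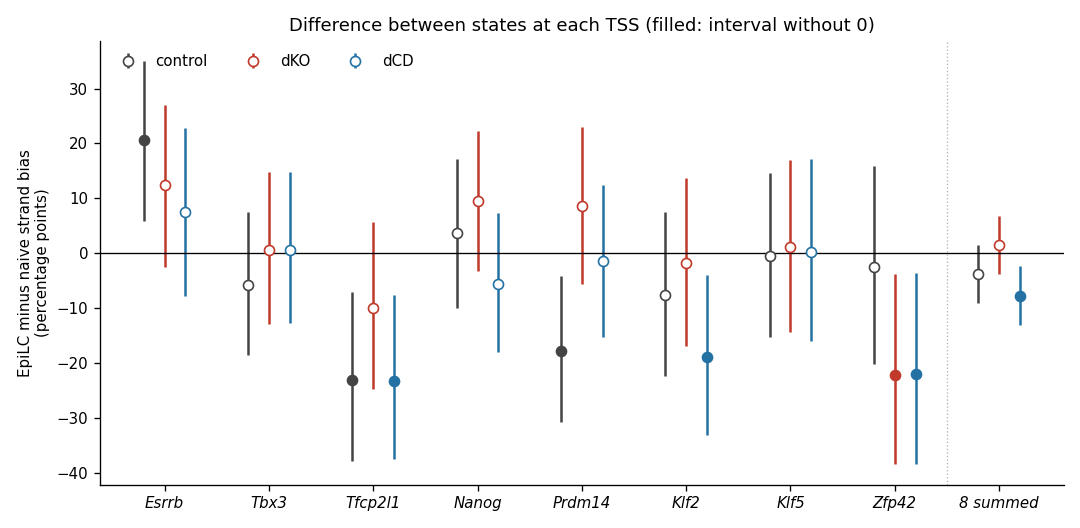
EpiLC minus naive strand bias (vertical axis, percentage points) of each TSS and of the 8 summed, in 3 genotypes, with 95% counting intervals as bars and filled points where the interval does not hold 0. Esrrb is above 0 in all 3 genotypes (20.7 points in control), and Tfcp2l1, Klf2 and Zfp42 are below 0 in all 3.

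The 50 kb sides of the TSSs were also compared one by one. Of the 16 sides of the 8 genes, the Crick share differed between states by a called amount at 4 in control, beside 17.1% of all sides. These were the right sides of Esrrb, Tbx3, Tfcp2l1 and Prdm14. In dKO 4 were called, both sides of Tbx3 and the right sides of Esrrb and Zfp42, beside 12.6%. In dCD 8 were called, beside 21.1%, both sides of Tbx3 and Prdm14, the right sides of Esrrb, Tfcp2l1 and Klf2 and the left side of Zfp42. Both sides were called in the same direction at 0 of the 8 genes in control (2.98% of all TSSs), at 1 in dKO, Tbx3 (1.39%), and at 2 in dCD, Tbx3 and Prdm14 (5.16%).

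Tfcp2l1 encodes a factor of the CP2 family that LIF signalling raises. Its gene (ENSMUSG00000026380, chr1:118627945-118685168, plus strand) had the highest strand bias of the 8 in naive control and naive dCD. The strand bias was 38.7 points in naive control, 31.6 in dKO and 44.4 in dCD, and 15.6, 21.6 and 21.2 points in the corresponding EpiLC libraries. All 3 naive values lay above all 3 EpiLC values. The difference of EpiLC from naive libraries was -23.1 points in control (-37.9 to -7.08) and -23.2 in dCD (-37.5 to -7.53), both called, and -9.98 in dKO (-24.7 to 5.76). In control and dCD the side that differed was the gene's own. To the right of the TSS, 80.8% of forks in naive control and 56.3% in EpiLC control moved with transcription, a difference of -24.5 points (-33.1 to -14.2), while to the left the Crick share was 42.0% and 40.7%. In dCD the right side differed by -18.6 points (-26.8 to -9.04) and the left by 4.61 (-7.82 to 16.3). In dKO neither side was called, at -3.24 on the right (-12.2 to 6.46) and 6.74 on the left (-5.66 to 18.4). Over the gene body, fork movement with transcription fell from 78.7% to 56.7% in control, by 22.1 points (-30.3 to -12.6), and from 79.6% to 62.8% in dCD, by 16.8 (-24.7 to -7.84). In dKO it was 69.4% and 66.9%. The 50 kb window with the highest strand bias was centred 5 to 14 kb upstream of the TSS in each of the 6 libraries.

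Esrrb, an orphan nuclear receptor, was the only one of the 8 with a strand bias below 0 in 50 kb windows. The gene (ENSMUSG00000021255, chr12:86361117-86521628, plus strand) spans 161 kb. At its first start the strand bias was -13.5 points in naive control (-25.4 to -1.01), -7.32 in dKO and -7.47 in dCD, and 7.23, 5.12 and 0.119 in the EpiLC libraries. EpiLC minus naive was 20.7 points in control (5.83 to 35.1), 12.4 in dKO (-2.48 to 27.1) and 7.59 in dCD (-7.85 to 22.7). The first of these was called. In control the difference lay above that of 98.4% of all TSSs. With 25 kb windows the naive control strand bias was -8.18 points (-25.2 to 9.05) and that of naive dKO 2.79, and the EpiLC values no longer lay above all the naive ones. They overlapped with 100 kb windows too, where EpiLC dCD had -5.96 points (-11.1 to -0.764) and naive dKO -3.49.

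At the second Esrrb start, 60.5 kb downstream, the order of the states was turned. Strand bias was 14.4 points in naive control (2.33 to 25.9), 14.1 in dKO (0.726 to 26.7) and 6.66 in dCD (-6.58 to 19.6). In the EpiLC libraries it was -1.23, 2.95 and -5.95 points. The EpiLC minus naive difference was -15.6 in control (-29.7 to -1.05), -11.1 in dKO (-25.7 to 4.06) and -12.6 in dCD (-27.4 to 2.51). The 61 kb between the starts, a stretch picked after its values had been seen, served both windows. There 36.6%, 38.0% and 39.1% of forks moved with transcription in naive control, dKO and dCD. In the EpiLC libraries the shares were 55.4%, 49.9% and 52.7%. All 3 naive shares lay below all 3 EpiLC shares, by 18.8 points in control (9.37 to 27.7), 11.9 in dKO (2.06 to 21.1) and 13.6 in dCD (3.82 to 22.8). The 50 kb before the first start and the 50 kb after the second gave no called difference between states in any genotype. The highest strand bias of the region lay 71 to 106 kb inside the gene in the naive libraries, at up to 37.0 points in dCD, and reached 10.7 at most in the EpiLC libraries.

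**Figure D4:**
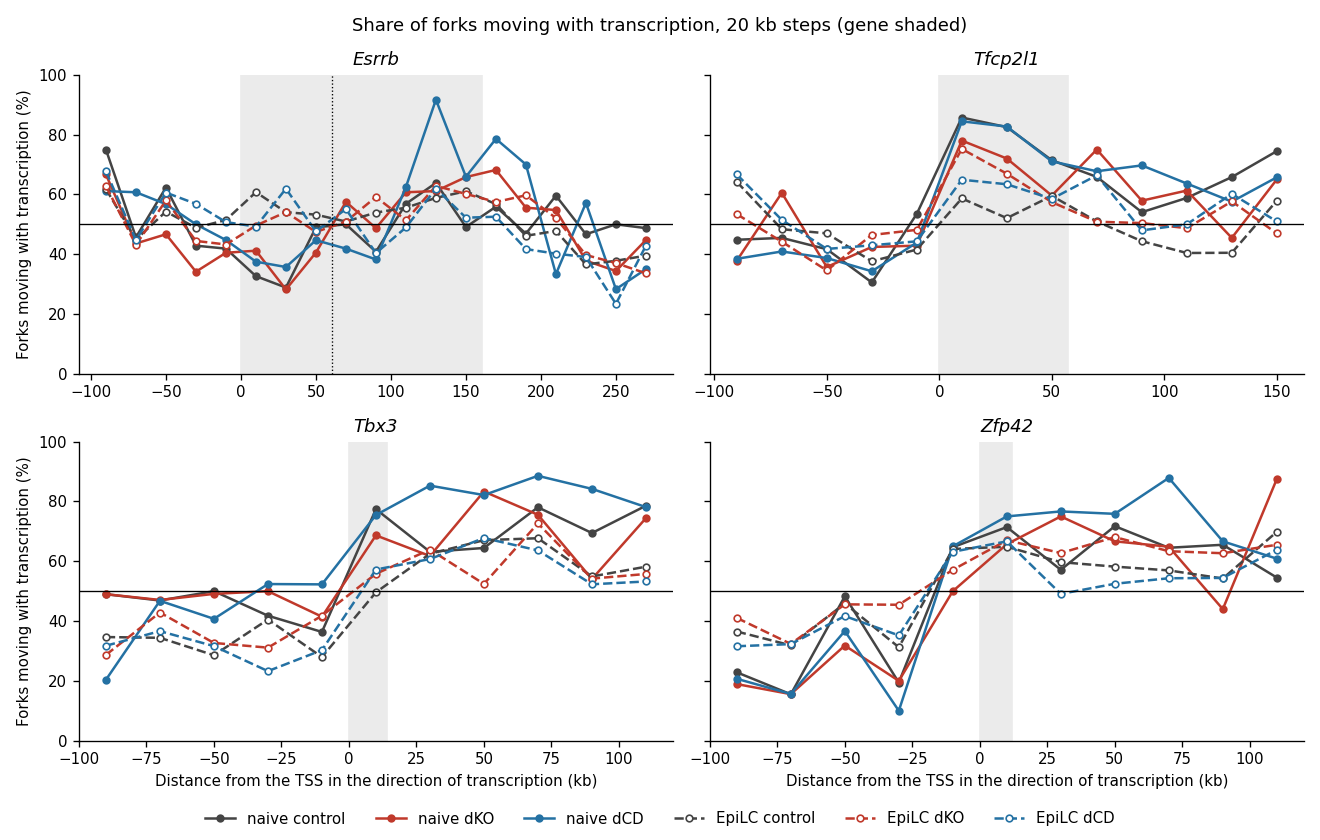
Share of forks moving with transcription (vertical axis, percent) in 20 kb steps from the TSS (horizontal axis, kb) over 4 genes and 100 kb on each side, in 6 libraries. The gene is shaded, and the dotted line marks the second Esrrb start. Each naive line (filled) lies below the EpiLC line (open) of its genotype between the Esrrb starts and above it in the first 40 kb of Tfcp2l1 and within Tbx3.

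Zfp42 encodes a zinc finger protein related to YY1. The gene (ENSMUSG00000051176, chr8:43295063-43306980, minus strand) had a strand bias of 24.1 points in naive control, 38.8 in dKO and 40.8 in dCD. In the EpiLC libraries it had 21.5, 16.6 and 18.8 points. The groups did not overlap, with the control pair 2.55 points apart. The difference of EpiLC from naive libraries was called in dKO, at -22.2 points (-38.5 to -3.73), and in dCD, at -22.0 (-38.4 to -3.60), and was -2.55 in control (-20.2 to 15.9). The control value depended on the window and the correction. With 100 kb windows it was -18.7 points (-30.4 to -6.23), which was called, with 25 kb windows -15.8 (-41.0 to 11.2), and after correction for base composition 4.19 (-14.0 to 22.6), where the groups overlapped. In dKO the corrected difference was -17.8 (-34.9 to 0.851), no longer called. The EpiLC strand bias itself was not called with 25 kb windows, at 2.58, 5.07 and 3.40 points in control, dKO and dCD. That of naive control was not called with 25 kb windows (18.4, -3.29 to 38.0) or after correction for base composition (12.7, -2.32 to 27.1). Over the gene body 65.6% to 84.0% of forks moved with transcription over the 6 libraries, the highest in naive dCD, from 21 to 61 reads in each. The highest strand bias of the region lay 16 to 32 kb upstream of the TSS in every library, reaching 51.6 points in naive dCD.

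Tbx3, a T-box factor, gave no called difference of strand bias between states in 50 kb windows, while the direction of forks around it differed. The gene (ENSMUSG00000018604, chr5:119670669-119684724, plus strand) had strand biases of 31.8, 23.6 and 33.4 points in naive control, dKO and dCD and 25.9, 24.3 and 33.9 in the EpiLC libraries. All 6 were called above 0, and the ranges overlap. They stood between the percentiles 88.9 and 99.5 of all TSSs. With 100 kb windows EpiLC minus naive in dCD was called, at -11.4 points (-20.7 to -1.37), from 40.7 in naive to 29.3 in EpiLC cells. On the left of the TSS the Crick share was 39.8%, 45.2% and 47.8% in the naive and 31.8%, 34.3% and 25.9% in the EpiLC libraries. On the right it was 71.5%, 68.9% and 81.2% in the naive and 57.8%, 58.5% and 59.8% in the EpiLC libraries. The share was lower in EpiLCs on both sides in each genotype, by an amount called in all but the left side of control. In control the difference was -13.7 points on the right (-22.6 to -4.12) and -7.91 on the left (-17.0 to 1.13). In dKO it was -11.0 on the left (-20.9 to -1.10) and -10.3 on the right (-19.6 to -0.190), and in dCD -21.9 on the left (-32.0 to -11.7) and -21.4 on the right (-29.8 to -11.2). Over the gene body in control, fork movement with transcription fell by 34.8 points (-48.2 to -18.0), from 77.1% of 48 reads to 42.3% of 97 reads. In dKO and dCD the body held 71.7% and 70.0% in naive and 55.6% and 56.1% in EpiLC libraries. The window of highest strand bias was centred at most 5.33 kb from the TSS in all 6 libraries, which held for no other member.

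Nanog encodes the homeodomain factor of the core network. The gene (ENSMUSG00000012396, chr6:122707489-122714633, plus strand) had strand biases of 6.87, 6.71 and 24.1 points in naive control, dKO and dCD and of 10.5, 16.2 and 18.5 in the EpiLC libraries. The naive dCD value was the highest of the 6. Naive dCD minus control was 17.3 points (1.45 to 32.6), and neither another window nor correction for base composition kept the call. It was 9.93 with 25 kb windows (-13.1 to 32.5), 11.1 with 100 kb windows (-0.663 to 22.8) and 14.3 after the correction (-1.67 to 29.8). On the left of the TSS the Crick share was lower in dCD than in control in both states, by a called amount, at -11.2 points in naive (-21.8 to -0.223) and -8.85 in EpiLC cells (-15.8 to -1.85). The difference between states was -5.61 points in dCD (-18.0 to 7.41), and 3.63 and 9.50 in control and dKO, none of them called. In 5 of the 6 libraries the highest strand bias of the region was 73 to 87 kb downstream of Nanog. In the naive libraries summed it was 79 kb downstream, where the closest protein-coding TSS, at 15.6 kb, was that of Slc2a3, a glucose transporter gene.

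Prdm14 encodes a PR domain zinc finger protein, and its gene (ENSMUSG00000042414, chr1:13113457-13127163) lies on the minus strand. Strand bias was 26.4 points in naive control, 11.2 in dKO and 11.7 in dCD, and 8.61, 19.8 and 10.2 in the EpiLC libraries. Control was the highest of the 3 genotypes in naive and the lowest in EpiLC cells. EpiLC minus naive was -17.8 points in control (-30.7 to -4.10), 8.62 in dKO (-5.57 to 23.1) and -1.43 in dCD (-15.2 to 12.5). In dCD both sides held a lower Crick share in EpiLCs, with differences of -14.4 points on the left (-24.3 to -3.51) and -15.8 on the right (-24.3 to -6.04). In control the right side alone was called, at -19.3 points (-27.4 to -9.84). The dKO difference exceeded that of control by 26.4 points (6.68 to 45.8), the one such difference of state changes called among the 8 genes, beside 7.14% of all TSSs. For dCD against control none of the 8 was called, beside 7.04%. The difference of EpiLC dKO from EpiLC control was called too, at 11.2 points (0.596 to 21.8), while naive dKO minus control was -15.1 (-31.4 to 1.43). With 25 kb windows, with 100 kb windows and after correction for base composition, the EpiLC dKO difference was no longer called (5.90, 6.45 and 9.99 points). The highest strand bias of the Prdm14 region lay 32 to 54 kb downstream of the TSS in all libraries but EpiLC dCD. There it lay 16 kb upstream.

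The Krüppel-like factor genes Klf2 and Klf5 had strand biases between 4.15 and 23.1 points in the 6 libraries. Klf2 (ENSMUSG00000055148, chr8:72319033-72321656, plus strand) had 14.0, 7.70 and 23.1 points in naive control, dKO and dCD, and 6.34, 5.99 and 4.15 in the EpiLC libraries. The EpiLC values lay below the naive values, and none of them was called above 0. The EpiLC minus naive difference was called in dCD alone, at -19.0 points (-33.1 to -4.03). The Klf2 values moved with the window. With 25 kb windows EpiLC dKO and dCD were called above 0, at 15.3 and 15.1 points, and naive dKO had 2.08, so that the groups overlapped. With 100 kb windows EpiLC dCD was called below 0, at -7.70 (-13.3 to -2.07), and EpiLC dKO had -1.13. The highest strand bias near Klf2 lay 102 or 103 kb downstream in 5 of the 6 libraries. The position at 103 kb is 0.54 kb from the TSS of Eps15l1. Klf5 (ENSMUSG00000005148, chr14:99298691-99315036, plus strand) had 12.3, 9.01 and 14.1 points in the naive and 11.7, 10.2 and 14.4 in the EpiLC libraries. The widest EpiLC minus naive difference at Klf5 with 50 kb windows was 1.20 points, in dKO (-14.3 to 17.0). With 25 kb windows no EpiLC value of Klf5 was called, at 1.51, 1.79 and 4.64 points. With 100 kb windows its naive values were called above 0, at 25.2, 16.1 and 31.7. The highest strand bias near Klf5 lay 24 to 59 kb from the TSS, upstream in both control libraries and downstream in the mutants.

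Between genotypes, the summed strand bias of the 8 TSSs gave no called difference with 50 kb windows. Both mutants of a state were set against the same control library. Mutant minus control was -2.92 points for naive dKO (-9.24 to 3.40), 5.78 for naive dCD (-0.588 to 12.1), 2.41 for EpiLC dKO (-1.62 to 6.44) and 1.89 for EpiLC dCD (-2.17 to 5.94). None of the 8 TSSs was called for naive dKO, beside 7.54% of all TSSs. For naive dCD 1 was called, that of Nanog, beside 8.02%. Which gene was called changed with the window. With 25 kb it was Prdm14, in the other direction (-26.4, -48.2 to -2.19), and with 100 kb it was Tbx3 (14.7, 3.18 to 25.9). For EpiLC dKO 1 was called, that of Prdm14, beside 7.53%, and for EpiLC dCD none, beside 8.29%. Of the 16 sides taken singly, 1 was called for naive dKO (Prdm14 right, -11.6 points), beside 9.11% of all sides, and 2 for naive dCD (Nanog left and Prdm14 left, 12.4), beside 14.9%. For EpiLC dKO 2 were called (Tfcp2l1 right, 11.8, and Prdm14 right, 11.1), beside 10.4%, and for EpiLC dCD 1 (Nanog left), beside 16.5%. Naive dCD values were above those of naive control at 7 of the 8 genes, all but Prdm14, while the median difference over all TSSs was 1.03 points and the amplitude of naive dCD was the wider (16.5 against 12.6). Divided by amplitude and rescaled to that of naive control, the summed naive dCD minus control difference was 0.45 points (-5.15 to 6.05). The strand bias was then 17.3 in dCD and 16.8 in control. With 100 kb windows the summed naive dCD difference was 7.03 points (2.40 to 11.6), without Prdm14 it was 8.50 (1.66 to 15.3), and with 25 kb windows it was 1.58 (-7.46 to 10.6).

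Over the gene bodies, 56.1% of forks moved with transcription in naive control (52.4 to 59.6), 56.3% in naive dKO and 60.7% in naive dCD. In the EpiLC libraries the share was 54.1% in control (51.7 to 56.5), 56.5% in dKO and 53.8% in dCD. After correction for base composition (the surplus of T over A in each bin) the shares were 49.7% to 54.5%, and only that of naive dCD kept an interval above 50%. For the difference between states, 7 of the 8 genes had at least 10 reads in every library, and Klf2, with 3 to 6 reads in each naive library, did not. In control 3 of the 7 were called (Esrrb above, Tbx3 and Tfcp2l1 below 0), beside 17.8% of 16612 genes. In dKO none was called, beside 13.2%, and in dCD 2 were (Prdm14 above and Tfcp2l1 below 0), beside 21.2%. Between genotypes, naive dCD minus control was called at 2 of the 7, Esrrb (7.34 points, 0.224 to 14.3) and Prdm14 (-27.1, -45.9 to -4.37), beside 14.7% of genes. For EpiLC dKO it was called at Tfcp2l1 (10.3, 3.15 to 17.3), beside 10.8%, and for EpiLC dCD at Tbx3 (13.8, 0.538 to 26.4), beside 16.2%. For naive dKO none was called, beside 9.25%.

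The density of Okazaki reads over each gene and 100 kb on each side was lower in EpiLCs by a called amount at 4 of the 8 genes in control, 3 in dKO and 7 in dCD. Scaled to 1000000 reads per library (RPM), Zfp42 had 88.0 RPM in naive control, 82.7 in dKO and 84.7 in dCD, and 59.9, 70.6 and 68.0 in the EpiLC libraries. The Tbx3 region had 134, 130 and 128 RPM in the naive and 106, 106 and 101 in the EpiLC libraries. For both genes the 3 EpiLC values lay below the 3 naive values, as they did at 5 of the 8 (Nanog, Prdm14 and Klf2 too) and at 17.2% of all genes. They lay above them at 0 of the 8 and at 9.9% of all genes. EpiLC over naive was 0.681 at Zfp42 in control (0.600 to 0.773), 0.853 in dKO and 0.803 in dCD, and 0.788 at Tbx3 in control (0.714 to 0.871), 0.820 in dKO and 0.784 in dCD. At Klf2 the ratio was 0.769 in control (0.690 to 0.859), 0.924 in dKO and 0.738 in dCD. The ratio was called below 1 at 4 of the 8 genes in control (Esrrb, Tbx3, Klf2 and Zfp42), beside 15.8% of all genes. It was called at 3 in dKO (Tbx3, Nanog and Zfp42), beside 10%, and at 7 in dCD, all but Klf5, beside 24.2%. None was called above 1. The median of the 8 was 0.910, 0.925 and 0.814 in control, dKO and dCD, against 0.989, 1.0 and 0.972 over all genes. A share of a library's reads depends on what the rest of the library holds, and labelling, S phase makeup and copy number were not measured here.

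**Figure D5:**
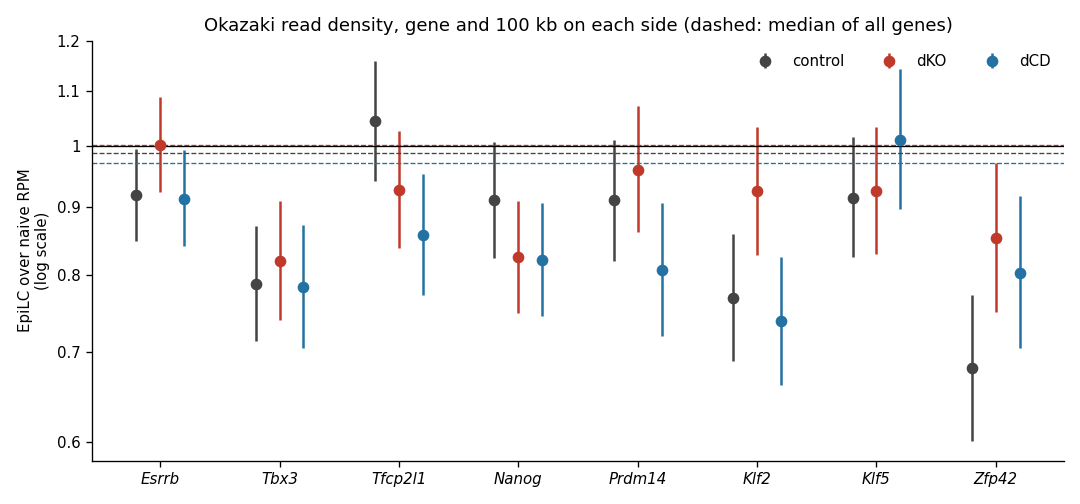
Ratio of EpiLC to naive Okazaki read density in RPM (vertical axis, log scale) over each gene and 100 kb on each side in 3 genotypes, with exact 95% intervals as bars and the median of all genes as dashed lines. Tbx3 and Zfp42 lie below 1 in all 3 genotypes, from 0.681 to 0.853, and no gene has an interval wholly above 1.

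Between genotypes, read density was called different at 2 of the 8 genes for naive dKO over control (Tfcp2l1 1.14 and Nanog 1.15), beside 11% of all genes. For naive dCD it was called at 3 (Tfcp2l1 1.14, Nanog 1.17 and Klf5 0.794), beside 18.3%. For EpiLC dKO it was called at 2 (Klf2 1.17 and Zfp42 1.18), beside 17.2%, and for EpiLC dCD at 3 (Zfp42 1.14, Prdm14 0.832 and Klf5 0.877), beside 30.6%. Klf5 was thus lower in dCD than in control in both states, and Zfp42 was higher in both mutants than in control in EpiLCs.

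Beside the 8 factors, 12 other genes of the naive state (Klf4, Nr5a2, Nr0b1, Fgf4, Dppa3, Dppa5a, Dppa2, Dppa4, Tet2, Tcl1, Gbx2 and Fbxo15) had a summed EpiLC minus naive difference of -8.46 points in control (-12.9 to -3.95), -10.6 in dKO (-15.2 to -5.81) and -15.1 in dCD (-20.0 to -10.2). In control 2 of the 12 were called, Nr0b1 (-30.1) and Dppa5a (-28.0), both below 0, beside 12.4% of all TSSs. In dKO 5 of the 12 were called (Nr5a2, Fgf4, Dppa5a, Dppa4 and Tet2), beside 10.1%, and in dCD 5 (Nr5a2, Fgf4, Dppa5a, Tet2 and Fbxo15), beside 12.2%, all of them below 0. The difference of the 8 from the 12 was 12.0 points in dKO (4.89 to 19.1) and 7.36 in dCD (0.0829 to 14.6), and 4.58 in control (-2.33 to 11.5). Reads were summed gene by gene, so reads in overlapping windows would count more than once. The intervals do not take this into account. For 10 formative genes (Fgf5, Otx2, Pou3f1, Dnmt3a, Dnmt3b, Lef1, Sall2, Zic2, Sox3 and Sox4) the summed difference was 0.636, -1.80 and 3.74 points in control, dKO and dCD, none of them called. No single gene of the 10 was called in control, and Sox4 alone was called in dKO (-22.4, -38.1 to -5.26) and, with the opposite sign, in dCD (25.5, 9.93 to 40.7). The 8 differed from these 10 in dCD, by -11.5 points (-18.9 to -4.04). For 8 core factor and LIF signalling genes (Pou5f1, Sox2, Sall4, Lifr, Il6st, Stat3, Jak1 and Socs3) it was -5.56 in control (-10.6 to -0.464), -1.68 in dKO and -3.47 in dCD, with Pou5f1 (-17.7) and Il6st (-24.5) called in control, Stat3 (-15.8) and Socs3 (17.1) in dKO and Stat3 (-20.6) in dCD.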

How the data were processed

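OK-seq was done in 12 samples, 2 biological replicates of 6 conditions. Per the methods, the authors aligned paired reads to mm10 with bowtie2 and counted Watson and Crick reads in 1 kb bins with published OK-seq scripts. FastQC, Trim Galore, Bowtie2 and Picard are in the submitters' processing notes, without versions, and whether duplicates were removed is not given in the sources used here. The authors deposited 1 track per condition, with the replicates summed, as signal (coverage) in reads per bp on each strand, not scaled for library size. Values times the bin size were whole reads (largest deviation 2.27e-13), and the position was taken as the end of a bin, since 0 reads then fell in kilobases made of N only, against 3045 otherwise.

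Here the autosomes and X were used, and 126 bins above 10 times the median count were left out. TSSs are the 5' ends of GENCODE M21 gene records. At least 10 reads on each side in every library were asked. Shares have Wilson intervals and differences Newcombe square-and-add intervals, read ratios exact Clopper-Pearson intervals, all at 95% and for counting error only, since reads lack molecular identifiers. Read density was scaled to 1000000 reads per library (RPM). With 1 summed track per condition no test over replicates was made. In an alternative, the dependence of a bin's Crick share on its surplus of T over A, taken against the surrounding 10 bins per side except the nearest 2, was fitted and subtracted (slopes between 1.69 and 1.81 for naive libraries, between 1.21 and 1.42 for EpiLC libraries). Other alternatives were the window, the TSS, the bins left out, a mean over genes, division by amplitude and each gene left out. After division by amplitude, values were multiplied by a reference amplitude. It was that of the naive library of the same genotype for state differences, and that of the control of the same state otherwise. Points from different references do not share a scale. The text gives values for all 8 members and, of each comparison list, up to 5 genes called between states in control, and names other protein-coding TSSs within 50 kb of a member's. The lists are printed in full. Slc2a3, Eps15l1 and the list genes called in dKO or dCD were singled out after their values were seen. The members and lists were chosen with earlier results of these data known. The procedure was tested on simulated data. Python 3.11.15 with numpy 2.4.6, pandas 2.3.3, scipy 1.17.1 and matplotlib 3.10.9 was used.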

Additional observations from a re-analysis of the deposited data

Results flagged for a closer look

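At Prdm14 the change between states differed between dKO and control by 26.4 points of strand bias (6.68 to 45.8), from 11.2 to 19.8 points in dKO and from 26.4 to 8.61 in control. It was marked because the interval of this difference does not hold 0. It was the 1 called of 16 such differences over the 8 genes and 2 mutants, and 7.14% of all TSSs were called by the same rule for dKO and 7.04% for dCD, so that the count is near the background. The interval covers counting error only, and no test over replicates could be made from the summed tracks.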

How the results depend on the processing

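No paired analysis was possible because the deposited tracks hold the replicates summed, and for the same reason no replicate could be left out. Of 579 alternative values, 529 stayed within the interval, or within 1.5 times the count, of the value reported, 50 moved further and none of the called values among them changed sign. Single genes were not among those rerun at the APPRIS principal TSS, which for Esrrb is the second start, where the called control difference between states is -15.6 points in place of 20.7 and the naive control strand bias 14.4 in place of -13.5.

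The summed strand bias moved to 21.2 points in naive control with Esrrb left out. In naive dCD it was 17.3 when rescaled to the amplitude of naive control. In EpiLC dCD it moved to 11.9 with 100 kb windows, 12.1 after correction for base composition and 11.9 with Tbx3 left out. Rescaled to the amplitude of EpiLC control, the EpiLC dCD value was 11.8. The summed EpiLC minus naive difference of control, not called at -3.88, became called with 25 kb windows (-7.99), with 100 kb windows (-5.25), at the APPRIS principal TSSs (-7.93), where the second Esrrb start takes the place of the first, and with Esrrb left out (-7.30). That of dCD was no longer called with 25 kb windows (-5.27), with Tfcp2l1 left out (-5.50) or divided by amplitude (-2.64). The naive dCD minus control difference became called with 100 kb windows (7.03) and with Tbx3 (7.26) or Prdm14 (8.50) left out. No alternative made the summed difference of dKO, between states or from control, called.

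With 25 kb windows the number of TSSs called between states was 1 in control, 0 in dKO and 0 in dCD, and the number called for EpiLC dKO against control was 0. After correction for base composition it was 0 in dKO between states, 0 for naive dCD against control and 0 for EpiLC dKO against control. With 100 kb windows it was 2 for EpiLC dCD against control (Esrrb and Klf2). Esrrb was no longer above all naive libraries with 25 kb or with 100 kb windows (0 genes each, alternatives chosen after seeing the data). For the counts of TSSs at these other settings the share of all TSSs is not given, so they have no background beside them. After the same correction, the co-directional share of the gene bodies was 51.0%, 50.9% and 54.5% in naive control, dKO and dCD and 50.5%, 52.1% and 49.7% in the EpiLC libraries. Over 168 alternative values of single-gene differences, 13 calls were lost and 7 gained. Over all 312 single-gene alternatives with an interval, strand bias of single TSSs among them, 30 calls were lost and 20 gained. Over 212 summed alternatives 8 calls were lost and 7 gained. The cause of these changes was not tested. The naive libraries held a mean of 69.3 to 83.6 reads per 50 kb.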
